A study of Rattus norvegicus with 28 samples.

Results

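The genes described here mark the motor and sensory neurons of the spinal cord and build the neuronal intermediate filaments. The 9 members were Chat, Ache, Prph, Calca, Nefl, Nefm, Nefh, Ina and Tac1, chosen by gene name on the array. All 9 were found, on 13 probes and 31 spots, among 35469 gene names on the array. A gene's value was the mean of its probes on the authors' normalized log2 scale, so a difference of 1 is a 2-fold change in normalized fluorescence. Chat, Prph, Nefl, Nefm, Nefh, Ina and Tac1 had 1 probe each, and Ache and Calca had 3 each.

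Neurofilaments are polymers of the light, medium and heavy chains encoded by Nefl, Nefm and Nefh, joined by alpha-internexin (Ina) in central axons and by peripherin (Prph) in neurons that send axons out of the cord. They fill large axons and set their calibre. Chat makes acetylcholine, the transmitter of motor neurons, and Ache breaks it down. Calca encodes calcitonin and, by alternative splicing, the neuropeptide CGRP, found in pain-sensing fibres and in motor neurons. Tac1 encodes substance P, made by pain-sensing fibres and by some spinal neurons.

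All animals were adult female Sprague Dawley rats, and each of the 7 groups had 4 arrays that the study treats as biological replicates. T0 was the sham group, uninjured. T1, T2, T4 and T8 received a severe contusion of 250 kdyn at thoracic level T8 and were killed 1, 2, 4 and 8 weeks later. T1_NPC received neural progenitor cells (NPCs) right after the contusion and was killed at 1 week, and T2_NPC received them 1 week after it and was killed at 2 weeks. The NPCs were grown as neurospheres from injured cords of adult rats, and the labels describe FK-506 (tacrolimus), an immunosuppressant, from the day before transplantation at 1 mg/kg. Injured controls for the transplanted groups received cell-free medium, as the study's methods state. RNA came from about 1.5 cm of thoracic cord that held the epicentre, so neurons, glia and invading cells were measured together. A fall in such tissue cannot separate fewer cells of a type from less RNA per cell.

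One fact about the deposit bears on every value below. For 16 of the 28 arrays the scanner output and the column of the normalized table were deposited under different samples, and the table's labels were used here. The 12 undisputed arrays comprised 2 of T0, 1 of T1, 2 of T2, 1 of T4, 2 of T8 and 4 of T2_NPC. With those arrays alone all 36 member changes against T0 over the 4 times kept their direction. In that fit 5 members were called at T2 and 7 at T8. T1 and T4 kept 1 array each, with no spread of their own, so no count is given for them. With the scanner outputs under their own deposited samples, no member was called against T0 in any group. For these 2 settings the share of all features called is not given. A loss among the members therefore cannot be told from one over the whole array. The arrays were scanned in 3 sessions. By the scanner output matched to each table column, T0 and the injured groups filled the first and second, and both transplanted groups the third. By the scanner outputs' own deposited samples, T1_NPC was scanned in the second, and the third also held arrays of T0, T1, T4 and T8. On 74.5% to 82.7% of spots the signal was well above background, and no spot was saturated.

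Most members were lower after injury at each time. A gene was called where its limma p, adjusted by Benjamini-Hochberg over all 35469 features, was under 0.05. At T1, 7 members fell and 1 rose, against 25.1% of all features lower, 19.1% higher and 44.1% called in all. At T2, 8 fell and 1 rose, against 22.2% lower, 17.7% higher and 40.0% in all. At T4, 8 fell and none rose (21.0% lower, 17.5% higher, 38.5% in all), and at T8, 6 fell and none rose (21.5% lower, 18.2% higher, 39.7% in all). The median change of the members was -1.43, -1.68, -1.26 and -1.41 at the 4 times, and that of all features was -0.10, -0.05, -0.06 and -0.04. The members were picked with earlier results known, so these counts describe them and are not a test of the set.

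**Figure D1:**
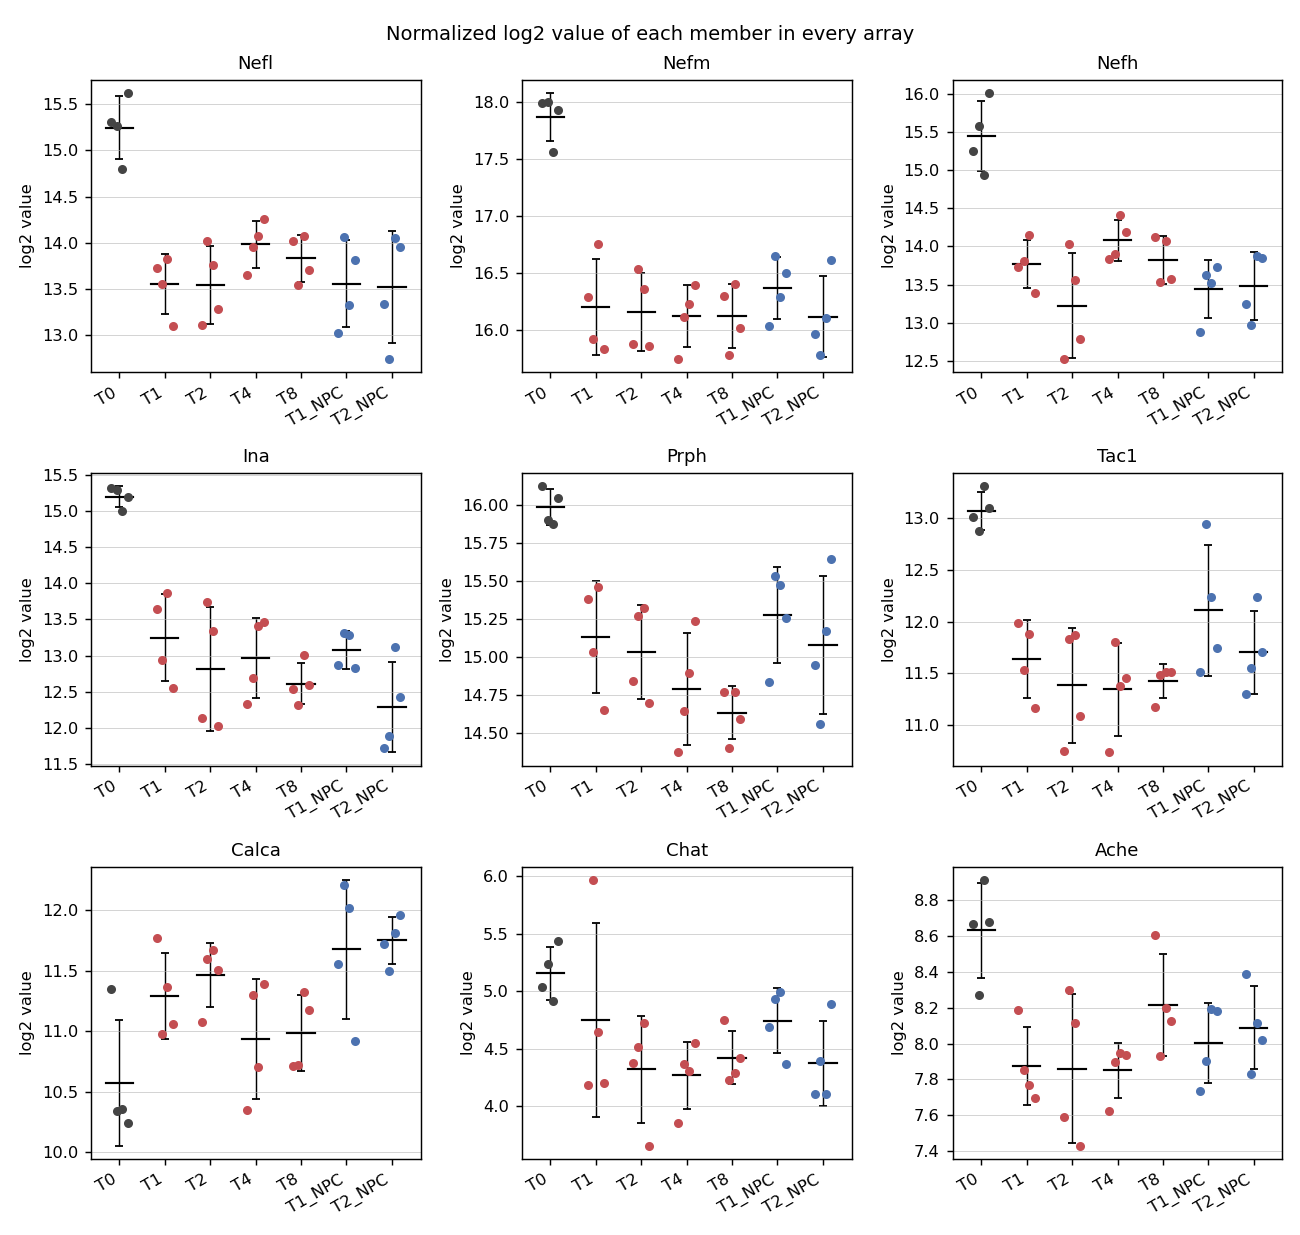
Normalized log2 value (vertical axis) of the 9 members in each of the 7 groups (horizontal axis), with 1 point per array, a bar at the mean and whiskers of 1 SD (n = 4). The 5 neurofilament genes lie below all T0 arrays on all 24 arrays of injured cord, Calca lies mostly above, and Chat overlaps between T0 and T1. The share of all features that separate in this way is not given.

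The 3 neurofilament chains fell at each time and were still lower at 8 weeks. Nefl stood at 15.31, 15.26, 14.80 and 15.62 in T0. It stood at 13.73, 13.56, 13.82 and 13.10 in T1. It stood at 14.02, 13.54, 14.08 and 13.70 in T8. The T0 arrays were all higher than every injured array, with a gap between the groups. The change was -1.70 ± 0.27 (SE, n = 4 and 4) at T1, 3.24-fold lower with an adjusted p (limma) of 2.09e-05, and it was -1.70, -1.26 and -1.41 at T2, T4 and T8.

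Nefm, the medium chain, fell by similar amounts at the 4 times. It lay between 17.56 and 18 in T0, and its 24 arrays of injured cord lay between 15.74 and 16.75. Its change was -1.67, -1.72, -1.75 and -1.75 at T1, T2, T4 and T8, with an SE of 0.22. T0 replicate 3 was lowest of its group, and still above all injured arrays.

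Nefh, the heavy chain that carries the long phosphorylated tail, was lower at each time. It stood at 15.25, 15.57, 14.94 and 16.01 in T0. It stood at 12.53, 14.03, 13.55 and 12.79 in T2. The T2 arrays spread widely, but none reached T0. The change was -2.22 ± 0.30 (SE) at T2, 4.65-fold lower with an adjusted p (limma) of 1.98e-06. At T1, T4 and T8 it was -1.67, -1.36 and -1.62. The T2 change was -1.30 within the first scan session and -3.13 within the second. The step from T2 to T4, of 0.86, did not pass the threshold (limma adjusted p = 0.349).

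Ina, which polymerizes with the chains in central axons, fell furthest of the 9 in every comparison with T0. It stood at 15.31, 15.29, 15.00 and 15.19 in T0. It stood at 13.64, 12.94, 13.86 and 12.56 in T1. It stood at 12.54, 12.32, 13.01 and 12.59 in T8. The T0 arrays were tightly grouped and far above the others. The change was -1.95 ± 0.36 (SE) at T1 and -2.58 ± 0.36 at T8, 5.99-fold lower with an adjusted p (limma) of 3.96e-06.

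Prph, the filament of motor and sensory neurons whose axons leave the cord, had the smallest change of the 5 at all 4 times. Its margin to Nefl was small at 4 and 8 weeks. Prph stood at 16.12, 15.90, 15.88 and 16.05 in T0. It stood at 15.38, 15.03, 15.46 and 14.65 in T1. It stood at 14.77, 14.40, 14.77 and 14.59 in T8. All injured arrays lay below T0, and those of T8 overlapped only with the lowest of T1. The change was -0.86, -0.95, -1.20 and -1.36 over the 4 times (SE 0.22), with adjusted p (limma) of 0.00289 at T1 and 2.89e-05 at T8. T8 against T1 differed by -0.50, which did not pass the threshold (limma adjusted p = 0.192).

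Across these 5 genes the changes ran from 1.81-fold to 5.99-fold lower, and the highest adjusted p over the 4 times was 0.00289. Under the table's labels, the size differed between the 2 scan sessions that held T0 and injured arrays. For these 5 genes and Tac1 the 48 differences from T0 within a session lay between -3.16 and -0.62. At T2 the change of Nefl was -1.16 in the first session and -2.24 in the second, and that of Ina was -1.61 and -3.16.

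**Figure D2:**
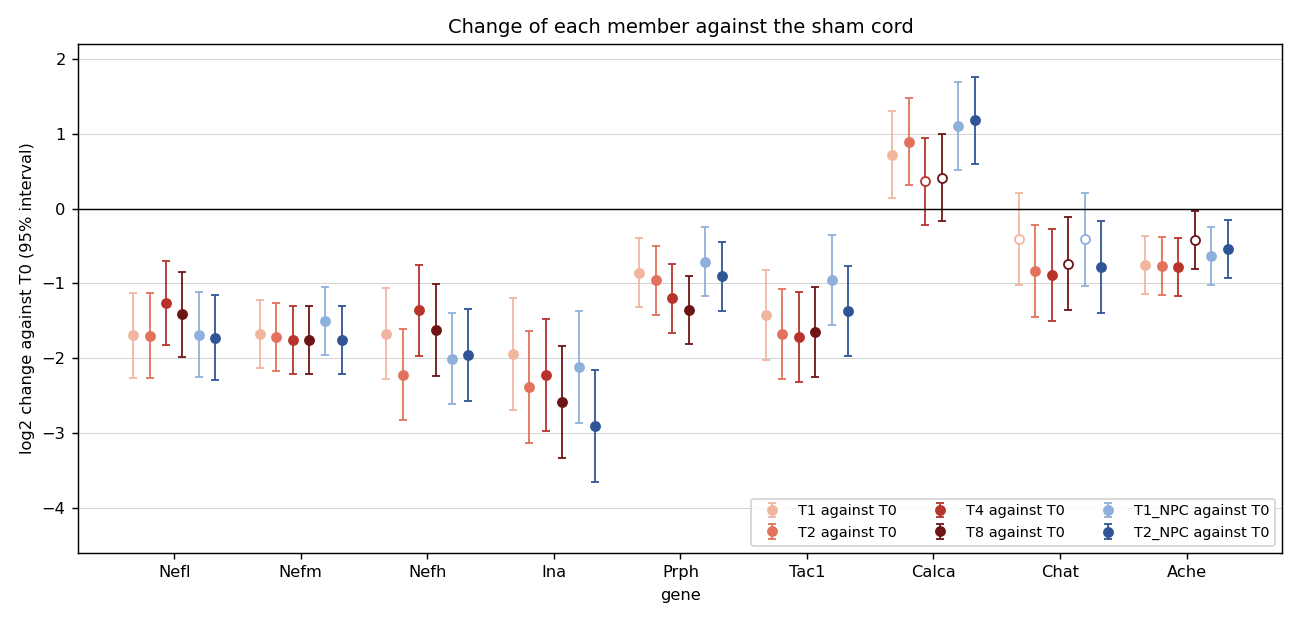
Log2 change against T0 (vertical axis) for each member (horizontal axis) at the 4 times after injury and in both transplanted groups, with 95% intervals from the limma fit. Filled points passed the adjusted threshold and open ones did not. Ina is lowest, at -2.58 at T8 and -2.91 in T2_NPC, and Calca alone is above 0.

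The filament genes were then set against each other within each array, which removes any shift that an array shares. The level difference between probes has no meaning of its own, and only its change between groups was read. Over 18 such comparisons, tested by exact two-sided permutation with Benjamini-Hochberg adjustment, 2 passed. Of the 18, 12 set 4 transplanted against 4 injured arrays, where the smallest p is 0.0286, so that hardly any could pass the adjustment and their failure says nothing about equality. Ina minus Nefl averaged -0.05 in T0 (range -0.43 to 0.20) and -0.82 over the 16 injured arrays (range -1.48 to 0.04). Ina therefore fell further than Nefl by 0.77 (exact permutation p = 0.00537, adjusted p = 0.0483), with an overlap of the groups. That call was lost when any of 15 single arrays was left out, among them T0 replicates 1, 2 and 3, whose removal gave adjusted p values up to 0.232.

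Read by time, the same difference averaged -0.30, -0.74, -1.02 and -1.22 from 1 to 8 weeks, with single times not tested. Prph minus Nefl showed the other order. It was 0.43 to 1.08 in T0, 1.48 to 1.65 in T1 and 1.24 to 1.73 in T2, with no overlap with T0. It was 0.69 to 0.98 in T4 and 0.69 to 0.88 in T8, within the range of T0. Beside Nefl, then, Prph stood higher than in sham cord at 1 and 2 weeks. The test over all 16 injured arrays did not pass (difference 0.43, exact permutation p = 0.0613, adjusted p = 0.276), and single times were not tested. Nefm minus Nefl was 2.31 to 2.77 in T0, 2.08 to 2.16 in T4 and 2.23 to 2.32 in T8, and Nefh minus Nefl overlapped T0 in every group. Neither passed the pooled test (adjusted p = 0.447 for both, exact permutation).

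**Figure D3:**
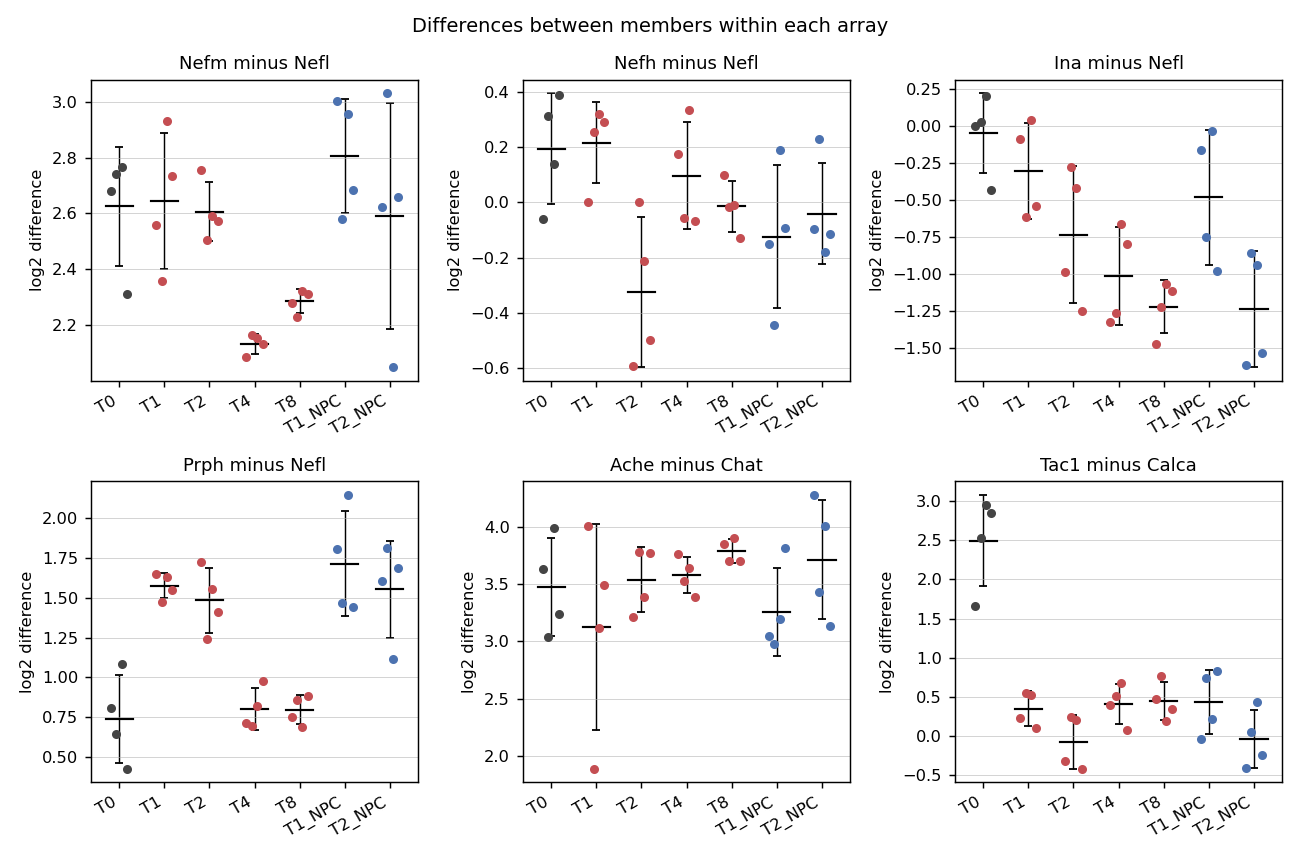
Difference in log2 value between paired members within each array (vertical axis) for the 7 groups (horizontal axis), with 1 point per array, mean and SD (n = 4). Prph minus Nefl lies between 1.24 and 1.73 in T1 and T2 and between 0.69 and 0.98 in T4 and T8, and Tac1 minus Calca drops from a T0 mean of 2.50 to between -0.08 and 0.44.

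Tac1 fell and its companion neuropeptide gene Calca did not. Tac1 stood at 13.01, 12.87, 13.30 and 13.09 in T0. It stood at 11.99, 11.53, 11.88 and 11.16 in T1. It stood at 11.18, 11.48, 11.51 and 11.52 in T8. Every array of T1, T2, T4 and T8 was below all of T0. The change was -1.43, -1.68, -1.72 and -1.64 at the 4 times (SE 0.29), 3.13-fold lower at T8 with an adjusted p (limma) of 6.84e-05. The Tac1 minus Calca difference was 1.67 to 2.95 in T0 and -0.42 to 0.76 over the 16 injured arrays, a change of -2.22 with no overlap (exact permutation p = 0.000206, the smallest that 4 against 16 arrays allows, adjusted p = 0.00372).

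Calca and Ache had 3 probes each that read different transcripts, and the probes of a gene did not behave alike. Their sequences are given, as the array file holds them, because these letters decide which transcript each value belongs to. Of probes that may lie outside the coding sequence only the first 30 of 60 bases are shown. Positions are in rat build rn4, where the file gives them.
Calca shared probe: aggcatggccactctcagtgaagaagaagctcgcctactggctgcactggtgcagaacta
Calca variant 1 probe: ttggcaactaggtccctcctctcctttcca
Calca CGRP probe: gttggctattgtgcatcgtgttgtatgtga
Ache tail-form probe: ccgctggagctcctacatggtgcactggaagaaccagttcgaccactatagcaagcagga
Ache H-form probe: gccagggcccgccttatccctgtcacttct
Ache R-form probe: tgcacaaggcggcaagggttggaaggacgg

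The Calca probes lay on the minus strand of chromosome 1 in the order in which the gene is read. The shared probe, at chr1:172689248-172689307, was annotated to 3 transcript variants. The variant 1 probe, at chr1:172688290-172688349, was annotated to variant 1 alone, the one that ends in the calcitonin exon, and was spotted 10 times. The CGRP probe, at chr1:172686316-172686443, spans a junction and was annotated to the mRNA of alpha-type CGRP.

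The variant 1 probe rose at every time and in every array. It stood at 10.27, 10.13, 10.37 and 10.32 in T0. It stood at 11.72, 11.41, 11.15 and 11.30 in T1. It stood at 11.54, 11.42, 11.44 and 11.67 in T8. The arrays within each group differed by little, and the lowest injured array of any time, at 10.78, was above all of T0. The change was 1.13, 0.97, 0.74 and 1.25 over the 4 times (SE 0.13), at T8 2.37-fold higher with an adjusted p (limma over 41012 probes) of 5.27e-08. Of all probes 45.0%, 40.6%, 39.1% and 40.5% were called at the 4 times. The rise was called with any single array left out. With the undisputed arrays alone it was also called at T2 and T8. At T1 and T4 only 1 such array remained, so no spread of its own lay behind those calls.

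The CGRP and shared probes followed each other, not the variant 1 probe. Over the 28 arrays the CGRP and shared probes had a Pearson r of 0.98, and variant 1 had 0.30 with the CGRP probe and 0.34 with the shared probe. The CGRP probe stood at 12.82, 11.50, 11.26 and 11.20 in T0. It stood at 12.60, 11.59, 12.40 and 11.94 in T1. It stood at 12.01, 12.70, 12.79 and 12.61 in T2. T0 replicate 1 was as high as the highest T2 array, and the other 3 T0 arrays were below all of T1 and T2. The change was 0.44, 0.83, 0.19 and -0.05 over the 4 times, with adjusted p (limma) of 0.42, 0.112, 0.767 and 0.951.

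The shared probe changed by 0.60, 0.87, 0.17 and 0.04, also without a call (adjusted p 0.1 at its smallest, limma). T0 replicate 1 set this result at 2 weeks. Without it, the CGRP probe was 1.21 higher at T2 (adjusted p = 0.0202) and the shared probe 1.28 higher (adjusted p = 0.0147, limma), whereas at T1, T4 and T8 neither passed.

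The mean over the 3 probes, the Calca gene value, was 0.72 higher at T1 (adjusted p = 0.0407) and 0.89 higher at T2 (adjusted p = 0.0133, limma), and was not called at T4 (0.37) or T8 (0.41). The T1 call was lost under 75th percentile scaling, in the fit of the 2 groups alone and without T0 replicate 2, 3 or 4 or T1 replicate 1 or 3, where the change was 0.56 to 0.72. With the CGRP probe alone, the brightest of the 3, neither the T1 nor the T2 change was called (0.44 and 0.83).

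**Figure D4:**
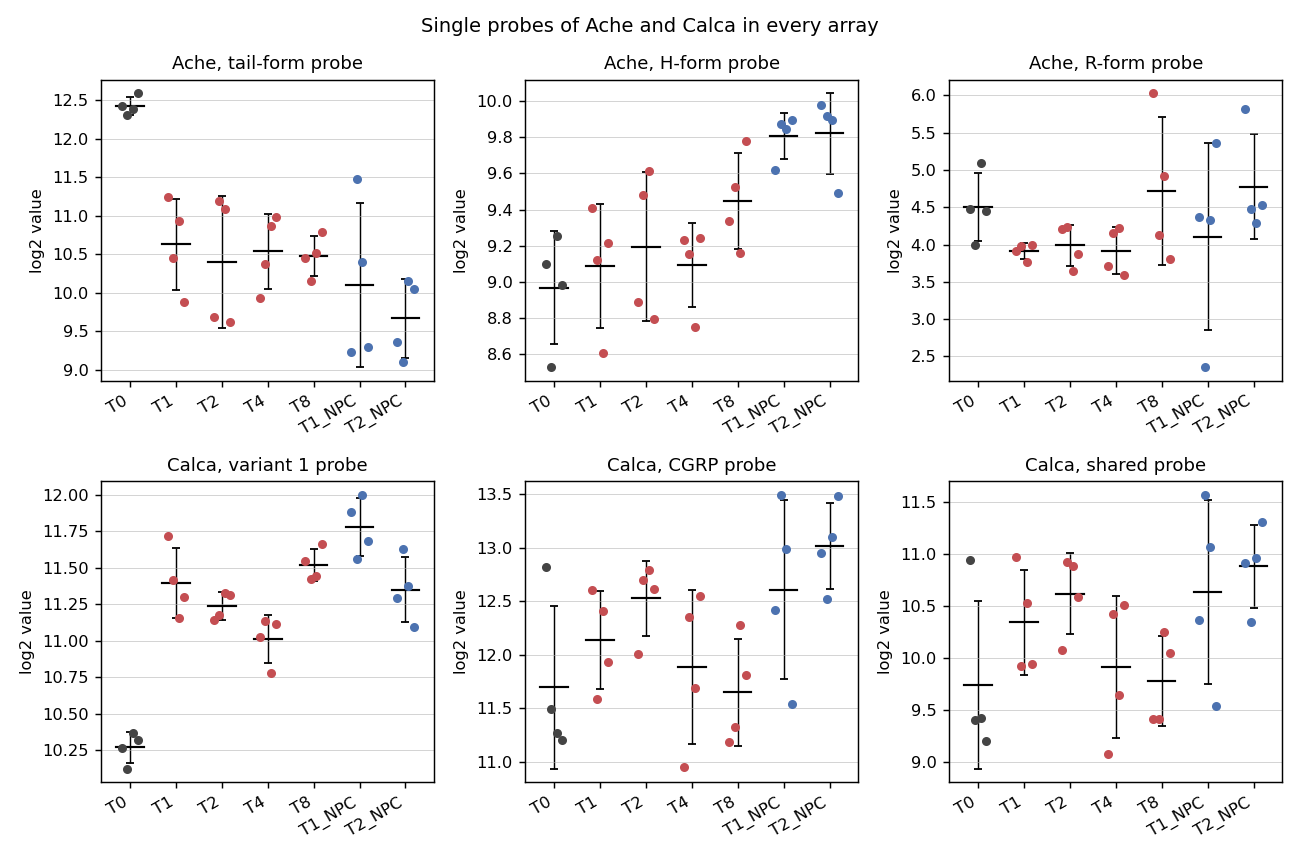
Log2 value (vertical axis) of the 3 Ache probes and the 3 Calca probes in the 7 groups (horizontal axis), with 1 point per array, mean and SD (n = 4). The tail-form probe of Ache falls from at least 12.30 to at most 11.47 while its H-form probe does not fall, and the variant 1 probe of Calca rises in every injured array while the CGRP and shared probes overlap T0.

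Ache is spliced at its end into a tailed form, the main enzyme of synapses, which is held by the anchors encoded by Colq and Prima1. It is also spliced into an H form anchored by glycolipid and a read-through R form. The tail-form probe, which the file annotates to the main Ache transcript, lies where the tail is encoded. The file gives no rn4 position for the 3 Ache probes.

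The tail-form probe fell sharply. It stood at 12.43, 12.30, 12.39 and 12.59 in T0. It stood at 11.24, 10.45, 10.93 and 9.88 in T1. It stood at 10.44, 10.15, 10.51 and 10.79 in T8. The 4 T0 arrays were close together and above all others. The change was -1.80, -2.03, -1.89 and -1.95 over the 4 times (SE 0.43), at T8 3.87-fold lower with an adjusted p (limma) of 0.00069, and each of these calls held with any single array left out.

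The H-form probe did not fall. It stood at 9.10, 8.53, 9.25 and 8.98 in T0. It stood at 9.41, 9.12, 8.61 and 9.22 in T1. It stood at 9.34, 9.52, 9.16 and 9.78 in T8. The groups overlapped at each time. The change was 0.12, 0.23, 0.13 and 0.48, with adjusted p (limma) of 0.669, 0.405, 0.668 and 0.0589. At T8 the 95% interval of the change was 0.07 to 0.90, and the rise was called with any of 4 single arrays left out. Within arrays the tail-form probe exceeded the H-form probe by 3.13 to 3.77 in T0 and by 0.63 to 2.32 over T1, T2, T4 and T8, with no overlap. That difference was noticed in these data and was not tested.

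The R-form probe carried little signal. It was well above background on 1 of 4 T0 arrays, 1 of T1, 2 of T2, 2 of T4 and 3 of T8, and it was not called at any of the 4 times. The gene value of Ache, the mean of the 3 probes, fell by 0.75, 0.77 and 0.78 at T1, T2 and T4 (adjusted p 0.00199, 0.0018 and 0.00178, limma). It was -0.42 at T8, without a call. It therefore averages a probe that fell, one that did not and one near background.

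Chat, the enzyme that defines cholinergic neurons, was lower at 2 and 4 weeks. It stood at 5.04, 5.24, 4.91 and 5.44 in T0. It stood at 4.18, 5.97, 4.65 and 4.20 in T1. It stood at 4.38, 4.52, 4.73 and 3.65 in T2. The probe was well above background on 27 of 28 arrays, and T1 replicate 2 was above all of T0. The change was -0.41, -0.84, -0.89 and -0.73 over the 4 times, with limma adjusted p of 0.293, 0.0278, 0.0209 and 0.0536. Without T1 replicate 2 the T1 change was -0.81 and was called (adjusted p = 0.00878). With normexp background correction, which compresses dim probes, the T2 and T4 changes were -0.17 and -0.20 and were not called. Ache minus Chat within arrays differed by 0.04 between injured and T0 arrays (exact permutation adjusted p = 0.945). With the brightest Ache probe, the tail form, that value was -1.20 and passed the adjusted threshold. The T2 call was also lost under 75th percentile scaling and without T0 replicate 2 or 4 or T2 replicate 4, and the T4 call without T0 replicate 4 or T4 replicate 1.

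Other genes of motor neurons were lower as well. Of 9 listed markers on the array, 7 fell at T1, T2 and T4 and 6 at T8. Beside this and each list below, 25.1%, 22.2%, 21.0% and 21.5% of all features fell at the 4 times. The shares that rose were 19.1%, 17.7%, 17.5% and 18.2%. Chodl, a marker of fast motor neurons, changed by -2.26 at T1, and the smallest called changes were those of Esrrb (-0.85) and the vesicle protein gene Slc10a4 (-0.88). Esrrg was called too but was well above background on 6 of 28 arrays, so no fold is given, and Esrrb was so on 18. Slc18a3 and Slc5a7, the vesicular and the membrane transporter that serve acetylcholine synthesis beside Chat, were named after their values were seen. Slc18a3 changed by -1.29, -1.13, -1.32 and -1.17 over the 4 times and Slc5a7 by -1.53, -1.39, -1.47 and -1.44, all called. Vipr2 was 0.84 higher at T4, the only rise called among the 9 at the 4 times. Isl2 was called lower at T4 alone and, like Esrrg, was well above background on 6 of 28 arrays.

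Of 20 genes that break down, anchor or receive acetylcholine, 10 fell and 1 rose at T1 and 8 fell and 2 rose at T8. Of all features 44.1% and 39.7% were called at these times, in either direction. The falls at T1 were led by Chrna4 (-1.91), a neuronal nicotinic subunit, and Chrm3 (-1.84), a muscarinic receptor. The rise was that of Chrng (1.31), the fetal muscle receptor subunit. Chrnb4 (-0.40) and Colq (-0.43), which encodes the collagen tail that holds Ache, had the smallest called changes, and at T8 Colq was 0.44 higher. Prima1, which anchors Ache in the brain, was not called at any of the 4 times.

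Markers of sensory neurons were mixed. Their cell bodies lie in the dorsal root ganglia outside the cord, so a cord sample holds mainly their axons. Of 10 listed genes, 5 fell and 1 rose at T1, and 6 fell and 1 rose at T8 (44.1% and 39.7% of all features called). Calcb, which encodes the second CGRP, was 0.90 higher at T1 but changed by -0.97 at T4 and -1.16 at T8. Mrgprd, a receptor of skin-supplying pain fibres, changed by -1.41 at T1. The smallest called changes were those of the sodium channel gene Scn10a (-0.74) and the transcription factor gene Pou4f1 (-0.85). Trpa1 was above background on 1 of 28 arrays and was not called.

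Genes around the peptides fell more often than they rose. Of 16 genes for tachykinins, their receptors, CGRP receptors and peptide processing, 9 fell and none rose at T1, and 7 fell and 3 rose at T8. Falls also outnumbered rises over all features (25.1% against 19.1% at T1, 21.5% against 18.2% at T8). Tac2, the array's name for the neurokinin B gene Tac3, changed by -2.0 at T1, and Tacr3, its receptor, by -1.91. Crcp (-0.27) and Pam (-0.37), the enzyme that amidates both peptides, had the smallest called changes. Tacr1, the receptor for substance P, was named after its value was seen, with -1.61 at T1 and -1.90 at T8.

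All 10 genes of neurons in general fell at each of the 4 times, with a median of -1.55 at T1 and -1.83 at T8. Snap25, of the synaptic release machinery, changed by -2.32 at T1, and the probe listed as RGD1560070 (Rbfox3, the NeuN antigen) by -1.81, while the smallest changes were those of Elavl3 (-0.79) and Uchl1 (-1.17). Of 15 genes of the axonal cytoskeleton and transport, 9 fell at T1 and 10 at T8, led by Map2 (-1.35) and Stmn2 (-1.32), with the smallest called changes in Ank3 (-0.85) and Ank2 (-0.97). The 5 filament members had medians of -1.67 and -1.62 at these times.

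Intermediate filaments of other cells moved the other way. Of 12 such genes on the array, 8 rose and 2 fell at T1, and 10 rose and 1 fell at T8. Vim, of mesenchymal and reactive cells, was 4.28 higher at T1, and Lmnb1, of the nuclear lamina, 2.31 higher. Krt18 (-1.0) and Synm (-0.44) were the falls, and Bfsp1 was the smallest rise (0.74).

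Marker genes of other cell types changed beside these values. All 6 listed genes of microglia and macrophages, all 5 of T cells and all 5 of fibroblasts rose at T1, and 5 of 6 Schwann cell genes rose. The mean log2 value of the macrophage list ranged from 8.38 to 8.73 in T0 and from 11.54 to 12.25 in T1. That of the Schwann cell list ranged from 8.32 to 8.78 in T0 and from 11.91 to 12.21 in T8, and that of the fibroblast list from 9.42 to 9.98 in T0 and from 13.12 to 14.05 in T1. The T cell list ranged from 3.99 to 4.61 in T0 and from 6.99 to 7.62 in T1. The oligodendrocyte list had 4 of 6 genes lower at T1 and 5 at T8, and the astrocyte list had 4 of 6 lower and 1 higher at T1. Of 8 muscle genes 3 rose and 2 fell at T1, and of 3 red blood cell genes none was called (44.1% of all features called). The part of these shifts in the members' falls was not tested.

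**Figure D5:**
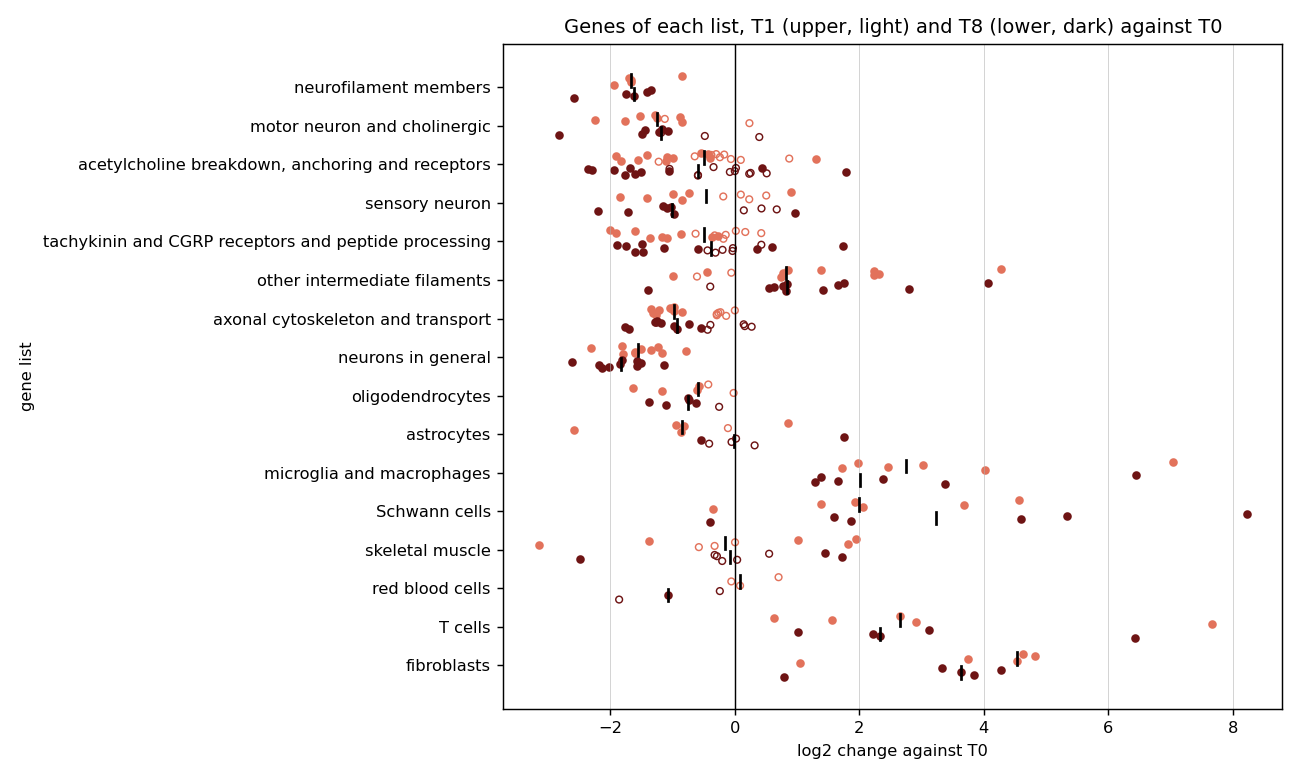
Log2 change against T0 (horizontal axis) of each gene in 16 lists (vertical axis) at T1 (light, upper row) and T8 (dark, lower row), with filled points called, open points not called and a black bar at the median. The neuronal lists lie mostly left of 0, with medians of -1.67 for filament members and -1.55 for neurons in general at T1, and the macrophage, Schwann cell, T cell and fibroblast lists lie right of it.

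Between times after injury no member was called. This held for T2 against T1 (background 1.48% of features called), T4 against T2 (0.0761%), T8 against T4 (0.0902%) and T8 against T1 (9.87%). At an unadjusted limma p under 0.05 there were 0, 1, 0 and 1 members, namely Nefh for T4 against T2 and Prph for T8 against T1, both given above. Every alternative run gave 0 calls for these 4 comparisons as well.

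Transplantation was compared with injured cord of the same age. Under the table's labels, which were used here, the transplanted groups were scanned in a session of their own and each on its own slide. A difference from T1 or T2 and one of batch therefore cannot be told apart. No member was called for T1_NPC against T1 (11.9% of features called) or for T2_NPC against T2 (9.47%), and none had an unadjusted limma p under 0.05. The 9 changes lay between 0.00 and 0.47 in size in the first and between 0.02 and 0.53 in the second, with SEs of 0.19 to 0.36. For Nefl the 95% interval of the change was -0.56 to 0.57 in the first and -0.59 to 0.54 in the second, and for Ina it was -1.27 to 0.22 in the second. With the undisputed arrays alone, 1 member, Ina, was called for T2_NPC against T2, where the share of all features called is not given. For the difference between the acute and the subacute effect no member was called (background 0.299%, adjusted p at least 0.633, none at an unadjusted limma p under 0.05).

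Of the 6 Ache and Calca probes, 1 was called in these comparisons, the H-form probe of Ache. It stood at 9.62, 9.87, 9.85 and 9.90 in T1_NPC. It stood at 9.98, 9.92, 9.90 and 9.49 in T2_NPC. All T1_NPC arrays were above all T1 arrays, and 3 of the 4 T2_NPC arrays were above all T2 arrays. The change was 0.72 ± 0.20 (SE) for T1_NPC against T1 (adjusted p = 0.0212, 12.5% of probes called) and 0.63 ± 0.20 for T2_NPC against T2 (adjusted p = 0.0466, 10.6% of probes called, limma). The first call was lost without T1 replicate 3 (0.56, adjusted p = 0.0893), and the second with 15 of the 28 arrays left out in turn, with adjusted p up to 0.139. With the undisputed arrays the second was 0.28 and was not called. The tail-form probe changed by -0.53 and -0.73 in the same comparisons, neither called. The variant 1 probe of Calca was 0.38 higher for T1_NPC against T1 (limma adjusted p = 0.052) and was called with any of 5 single arrays left out.

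Against T0 most members were lower in both transplanted groups. T1_NPC had 7 members lower and 1 higher (29.9% of features lower, 52.7% called in all), and T2_NPC had 8 lower and 1 higher (26.5% lower, 47.7% in all). Ina changed by -2.12 and -2.91, Nefl by -1.69 and -1.72, and Tac1 by -0.96 and -1.37, all called. Tac1 replicate 2 of T1_NPC, at 12.94, reached the T0 range, and the other 3 were below it. The Calca gene value was 1.10 and 1.18 higher. Its CGRP probe was 0.91 higher in T1_NPC (adjusted p = 0.0642) and 1.32 higher in T2_NPC (adjusted p = 0.00974, limma; 53.5% and 48.8% of probes were called). Without T0 replicate 1 the T1_NPC change of that probe was 1.29 and was called (adjusted p = 0.0104). With each array left out in turn, the variant 1 probe was 1.44 to 1.58 higher in T1_NPC and 0.98 to 1.16 higher in T2_NPC. The H-form probe of Ache was 0.70 to 0.94 and 0.71 to 0.97 higher. The tail-form probe changed by -2.79 to -2.04 and -2.92 to -2.57. All 3 were called each time, and the share of probes called in those fits is not given. T1 and T1_NPC share the T0 arrays as their control, as do T2 and T2_NPC.

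Over the 28 arrays each member had neighbours whose values followed it, given as Pearson r with no test, since the arrays share the step from T0 to injured cord and the scan sessions. Nefl and Nefh were each other's nearest (r = 0.95, and 0.85 over the 24 arrays without T0), followed for both by Kcnk4. Nefm was nearest to Nkiras1 (0.98), Prkcb and Atcay. Ina was nearest to Gls2 (0.98), Elavl4 and Elavl2, the latter pair RNA-binding proteins of neurons. Prph was nearest to Gna14 (0.94), Stmn2 and Fkbp1b, and Tac1 to Samd14 (0.96), Elmod1 and Eno2. Calca was nearest to Ibsp (0.81), Ucn and Uts2, Ache to Dlg4 (0.82), Guk1 and Abcg4, and Chat to Mchr1 (0.68), Timm23 and Gas2. The 10 pairs among the 5 filament genes had r of 0.69 to 0.95, and 0.28 to 0.85 without T0.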

How the data were processed

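Total RNA of 28 cord samples was labelled with Cy3 and read on 1-colour Agilent 4x44K rat arrays with Agilent Feature Extraction. The authors deposited a table of log2 values, quantile normalized between arrays, which was used throughout, and scanner outputs with intensity values, used for gene names and alternatives. Spots were averaged per probe (43379 spots, 41012 probes, control spots left out) and probes per gene name (35469). Each table column was matched to the scanner output with the same ranks (Spearman 1, next best at most 0.993). Gene names are those of the array design, annotated on rn4. A linear model with 7 group means and moderated variance (limma 3.58.1 in R 4.3.3) gave 13 comparisons, adjusted by Benjamini-Hochberg over all features. Within-array differences were tested by exact permutation. The code was tested on simulated data. Precision is set by 4 arrays a group. The series text calls the 4 arrays of a group biological replicates.

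The members and gene lists were chosen with earlier results of these data known. Named genes were the 9 members, of each list the pair of largest rises, the pair of largest falls and the pair of smallest called changes at T1, and the 3 nearest neighbours of each member. Alternatives were the scanner outputs, 75th percentile scaling, normexp correction (on median signals, since mean signals were not in all outputs), a dim-probe filter, the brightest probe, slide, session and replicate blocks, and each array left out. Probe-level alternatives were added after seeing the data. Matching list symbols used older names for Tac3, Sptan1 and Rbfox3, and 4 symbols were not found. The values of 1 gene that the naming rule chose are not reported here.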

Additional observations from a re-analysis of the deposited data

Results flagged for a closer look

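In groups of 4 arrays, 105 were checked for a single array far from the other 3 (the 9 members and the 6 probes of Ache and Calca in 7 groups), and 7 stood apart; chance gives about 1 in 20. Calca in T0 replicate 1 was 11.34 against 10.24 to 10.35 in the others, and the Calca shared probe there was 10.95 against 9.20 to 9.43, the array on which the 2-week result of that probe turned. Nefm in T0 replicate 3 was 17.56 against 17.93 to 18. Ache in T4 replicate 1 was 7.62 against 7.90 to 7.95, and its H-form probe in T4 replicate 3 was 8.75 against 9.16 to 9.24. Tac1 in T8 replicate 1 was 11.18 against 11.48 to 11.52. The dim R-form probe of Ache in T2_NPC replicate 1 was 5.82 against 4.29 to 4.53.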

How the results depend on the processing

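Of 2990 values of single members under the alternatives, 2870 kept their side of the threshold, 102 lost the call and 16 gained it. Another 2 changed sign with a call in either fit. Changes of sign between uncalled values are counted among the 2870. When scanner outputs were assigned as deposited, 0 members were called at T1, T2, T4 or T8 or in either transplanted group against T0 (limma). There Chat at T2 was 0.46, Calca in T1_NPC against T0 was -0.10, and the H-form probe of Ache in T1_NPC was -0.40 against T1 and -0.48 against T0. With the undisputed arrays, 3, 5 and 4 members were called at T1, T2 and T4, and 1 (Ina) for T2_NPC against T2. Asking also for a 2-fold change left 5 members at T1, 5 at T2 and 5 in T1_NPC against T0. Leaving out single arrays gave 7 to 9 members at T1, 8 to 9 at T2, 7 to 8 at T4 and 6 to 8 at T8. For none of these alternatives is the share of all features called given.

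Ina minus Nefl no longer passed with matched scanner outputs (-0.80), deposited samples (-0.19), undisputed arrays (-0.76), normexp (-0.75) or medians (-0.90), and ran from -0.89 to -0.68 with single arrays left out. Tac1 minus Calca no longer passed with deposited samples (-0.88) or undisputed arrays (-2.0). With 2 T0 and 6 injured undisputed arrays the smallest p was 0.0357, so that neither difference could be expected to pass there and the lost calls say nothing about stability. Ache minus Chat, 0.04 and not called as reported, was -0.39 with normexp and -1.20 with the brightest probe, and passed the threshold in both. The cause of these changes was not tested. The replicate numbers gave no pairing, since same-numbered arrays correlated between -0.34 and 0.30. With the replicate number as a block, 7, 9, 8 and 6 members were called at the 4 times and 8 and 9 in the transplanted groups against T0. The share of all features called in that fit is not given. Calca at T1 lost its call there (0.72, limma adjusted p = 0.0571). Slide and session as fixed blocks could not be fitted for the transplanted groups against injured or sham cord, and with session as a block 0 members were called for the acute against the subacute effect (limma), as without it. Probes near background, such as the R form of Ache, limit what could be seen.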
